A study of Homo sapiens with 6 samples.

Results

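Integrins are the cell surface receptors that hold cells to the matrix, and laminins and nidogens are proteins of the basement membrane to which many of them bind. Transcripts of 33 such genes were followed in 6 RNA sequencing libraries among 60664 genes in the deposited table. The genes were chosen by name: 13 integrin alpha chains, 8 integrin beta chains, 10 laminin chains and 2 nidogens, and each symbol matched 1 Ensembl gene. All cells were SKOV3, an established line grown from a human ovarian carcinoma. In 3 libraries they carried a short hairpin RNA against JUP (shJUP, genotype JUP knockdown), and in 3 they carried a control hairpin (shNC, genotype WT). JUP encodes plakoglobin, a linker protein of desmosomes and adherens junctions, and the series' title places it upstream of PDGFB and JAK-STAT signalling. The labels give no hairpin sequence and do not say how many hairpins were used, so other effects of a hairpin and those of lower JUP cannot be told apart.

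An integrin is a pair of 1 alpha and 1 beta chain. The beta chain ITGB1 pairs with most of the alpha chains listed here, and ITGAV pairs with several beta chains. ITGA3 and ITGA6 form receptors for laminin, ITGA5 with ITGB1 forms the main fibronectin receptor, and ITGA6 with ITGB4 anchors hemidesmosomes. A laminin is a trimer of an alpha, a beta and a gamma chain, and nidogens bridge the laminin and collagen IV networks of the basement membrane. In ovarian carcinoma, integrins carry the attachment of cells to the lining of the peritoneum.

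Library totals ranged from 17456121 to 19279514 estimated counts. Levels are given in CPM, the counts of a gene relative to all counts of its library after scaling between libraries, and values by library are in the order of the numbers 1, 2 and 3 in the library names. JUP was at 39.9, 93.6 and 24.6 CPM in the shJUP libraries, against 104, 133 and 101 CPM in the controls. The groups do not overlap, but the library labelled shJUP 2 held 0.705 of its same-numbered control, where the others held 0.384 and 0.243. The log2 fold change of JUP was -1.10 (SE 0.44, adjusted p = 0.47 by edgeR). DESeq2 gave an adjusted p of 0.18, and 0.047 with a block for the number (log2 -1.30, SE 0.43). The number-2 libraries deviated together from their group means (correlation 0.51), whereas numbers 1 and 3 correlated at only 0.14 and 0.20. Paired otherwise, shJUP 1 with shNC 3 gave 0.15 and shJUP 3 with shNC 1 gave 0.39. Results are also given with a block for the number and without the number-2 libraries. Among markers of the labelled cell type, ERBB2, known for its amplification in this line, reached 2320 to 6910 CPM, KRT8 494 to 839 CPM and PAX8 253 to 393 CPM, whereas EPCAM stayed at or below 4.62 CPM and MUC16 and CLDN3 below 1 CPM. From the leukocyte list of 11 genes, CD68 was at 19.5 to 35.8 CPM and ITGAX at 0.166 to 1.65 CPM. The other genes of that list stayed below 1 CPM, and PTPRC, which defines leukocytes, was at 0 to 0.0533 CPM. The summed leukocyte level lay between 20 and 38.1 CPM, most of it CD68. Of 10 fibroblast markers 7 reached 1 CPM, with a summed level of 12.3 to 270 CPM in shJUP and 45.2 to 545 CPM in shNC, most of it COL1A1. PDGFRB, THY1 and FAP, 3 other fibroblast markers, stayed below 1 CPM. The summed level lay between 7.89 and 17.1 CPM for 10 endothelial markers (EMCN at 0), between 1.49 and 2.87 CPM for 5 platelet markers, between 39 and 73.8 CPM for 8 mesothelial markers and between 2.29 and 4.59 CPM for 10 neural and embryonic kidney markers. In such bulk libraries, fewer cells that express a gene and less RNA of it per cell cannot be told apart.

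The SKOV3 libraries were dominated by a small number of these chains. Compared per kilobase of exon, ITGB1, the common beta chain, was the most abundant at 405 CPM per kilobase over the 6 libraries. Its CPM per kilobase were 357, 383 and 392 in the shJUP libraries, against 426, 391 and 479 in the controls. ITGA3, the alpha chain of a laminin receptor, followed at 131, 166 and 129 CPM per kilobase in shJUP and 158, 172 and 182 in shNC. LAMC1, the gamma chain of most laminins, was at 93.6, 140 and 116 CPM per kilobase in shJUP and 176, 179 and 158 in shNC. The ranges of ITGA3 and LAMC1 overlap, and both lie well below every value of ITGB1.

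Next in order were ITGA6, at 62.1 to 77.4 CPM per kilobase over the 6 libraries, and LAMB3, a beta chain of the epithelial laminin that attaches cells through hemidesmosomes, at 58.7 to 80.4. Their ranges overlap. ITGAV, the alpha chain of receptors for vitronectin, fibronectin and latent TGF-beta, was at 29.6 to 31.9 CPM per kilobase in shJUP and 35.1 to 52.8 in shNC. The first 3 genes kept their order when the longest transcript or the longest coding length was used for the length, whereas the place of ITGAV depended on the length. With the coding length it passed LAMB3 (99.7 against 92.1 CPM per kilobase), and with the longest transcript it came after LAMA3 and ITGA5 (44.6 against 47.3 and 45.8). At the low end, 9 of the tested members had a mean under 3 CPM: ITGA7, ITGA9, ITGA10, ITGB2, ITGB7, LAMA1, LAMA2, LAMA4 and LAMC3. ITGB2 and ITGB7 are beta chains of leukocyte integrins. ITGA11, a collagen receptor chain, had 0 to 3 counts, and ITGA8 had 0 counts in every library, which allows up to 0.16 to 0.17 CPM per library (3 counts, counting error only).

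**Figure D1:**
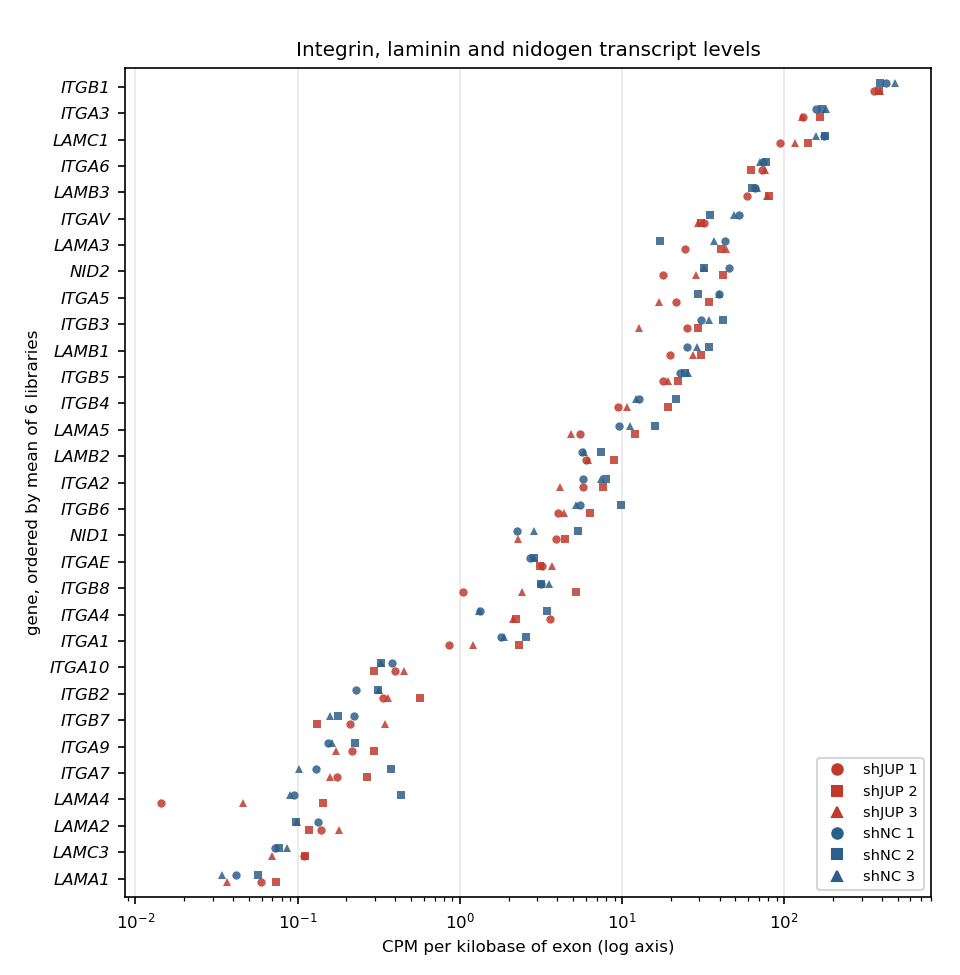
CPM per kilobase of exon (log axis) for the 31 tested members, ordered by their mean; each point is 1 library, red for shJUP, blue for shNC, with circles, squares and triangles for numbers 1, 2 and 3. ITGB1 lies above all other members in each library, and the shJUP points of ITGAV and LAMC1 lie left of the shNC points.

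Within each kind of chain, 1 gene was the most abundant in all 6 libraries. ITGB1 made up 85.6% ± 3.3 of the summed beta chain level per kilobase in shJUP and 83.3% ± 3.4 in shNC (SD, n = 3 each), with ITGB3 next at 5.07% ± 1.9 and 6.89% ± 1.4. ITGA3 made up 50.3% ± 3 of the alpha chains in shJUP and 50% ± 2.7 in shNC, and ITGA6 25.3% ± 4.6 and 21.7% ± 1.7. The groups overlap in each of these shares. Of the laminin alpha chains, LAMA3 made up 82.5% ± 6.6 in shJUP and 69.6% ± 16 in shNC, and LAMA5 nearly all of the rest. The wide control spread comes from shNC 2, where LAMA3 held 51.1% and LAMA5 47.2%, against 81.2% and 18.3% in shNC 1. Of the gamma chains counted here, LAMC1 and LAMC3, the latter held 0.0413% to 0.117% of the level. NID2 held 81.9% to 95.3% of the nidogen level.

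**Figure D2:**
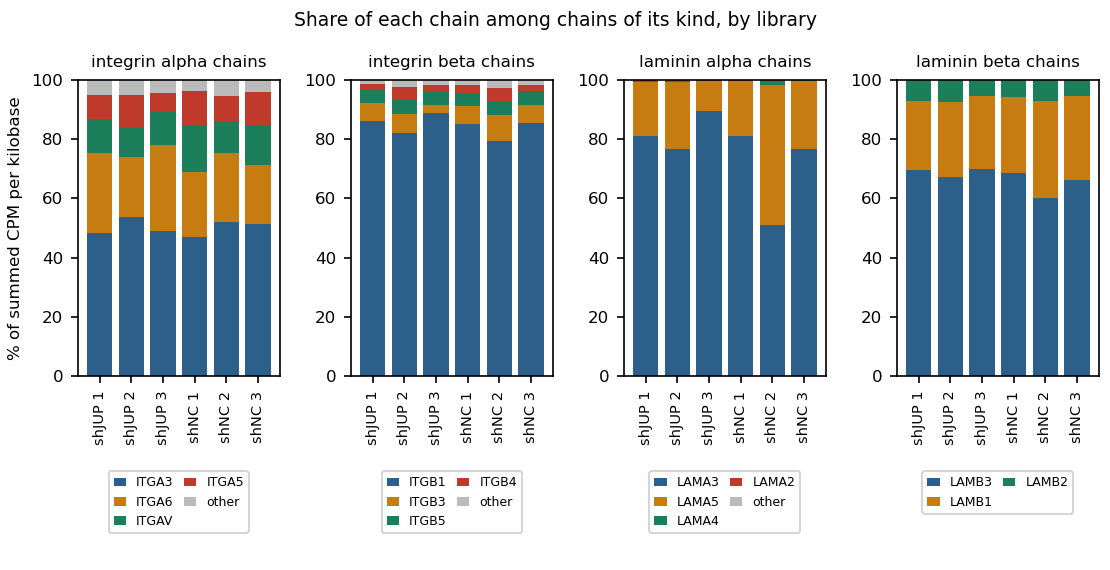
Share of each chain in the summed CPM per kilobase of its kind (percent, stacked), 1 bar per library, with the most abundant chains coloured and the others in grey. ITGB1 and ITGA3 lead their kinds in all 6 libraries, and shNC 2 stands apart in the laminin alpha panel.

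The comparison of shJUP with shNC asks whether these adhesion genes differ in cells with the JUP hairpin. None of the 31 tested members passed the edgeR quasi-likelihood test (adjusted p at least 0.40), where 0% of the 15867 genes tested did. Before adjustment, 3 members had p under 0.05 in edgeR, all with lower values in shJUP: ITGAV, LAMC1 and ITGB5. That is 9.68% of the members, against 4.87% of all genes lower at that p (10% in either direction), and 0 members were higher, against 5.17% of all genes. The log2 fold change (shJUP over shNC) lay below 0 for 18 of 31 members, or 58.1%, against 51.4% of all genes, with a median of -0.19 against -0.01. Without regard to any test, each shJUP library lay below each shNC library for 4 members (12.9%, against 8.65% of all genes) and above for 2 (6.45%, against 8.39%; 17% of all genes did not overlap in either direction).

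A second tool called some members lower once the library numbers entered the fit. DESeq2 called 0 members without a block for the number, where it called 1.26% of all genes (0.586% lower and 0.674% higher). With that block it called 4 members lower (12.9%, against 2.43% of all genes) and 0 higher (against 1.93%), with 4.36% of all genes called in either direction. The 4 members were ITGAV, ITGB3, LAMA5 and LAMC1. DESeq2 gave no adjusted p, in either fit, for 5 members with few counts: ITGA7, ITGB7, LAMA1, LAMA2 and LAMC3. Run on all genes above 0, DESeq2 with the block also called 4 members, against 2.2% of those genes (1.22% lower and 0.982% higher). The edgeR test with the same block called 0 members, against 0.0063% of all genes. Each of the 4 was lower in shJUP than in the same-numbered control in all 3 pairs, as were 13 members in all (41.9%, against 22.5% of all genes); 6 members were higher in all 3 pairs (19.4%, against 20.2%). What the numbers stand for is not given in the labels, and of the shJUP libraries only shJUP 2 correlated most with its same-numbered control.

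**Figure D3:**
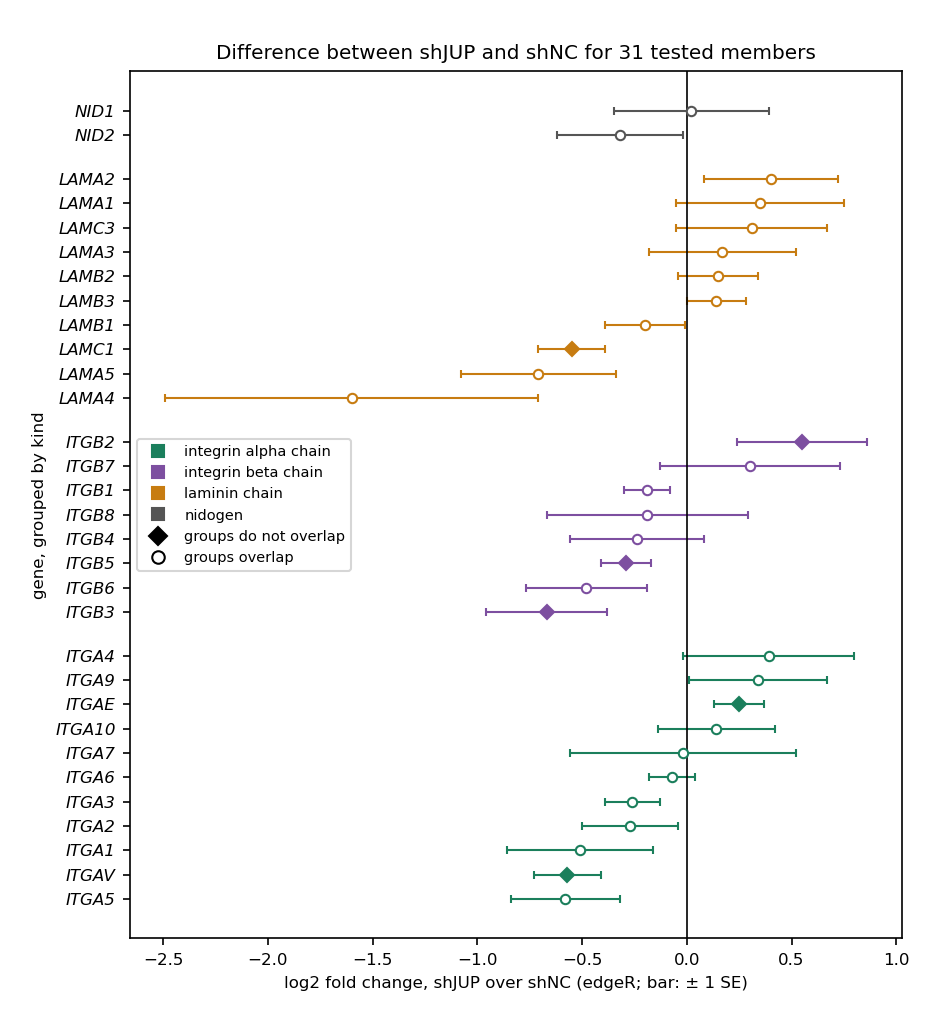
Log2 fold change of shJUP over shNC from edgeR with ± 1 SE for the 31 tested members, grouped as alpha chains, beta chains, laminins and nidogens; filled diamonds mark genes whose groups do not overlap. ITGAV, ITGB3, ITGB5 and LAMC1 are the diamonds left of 0, and ITGAE and ITGB2 those right of 0.

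ITGAV had the smallest p-value among the members in edgeR and DESeq2 without the block, whereas LAMA5 had it with the block in both tools and LAMC1 in limma-voom. Its values were 262, 251 and 243 CPM in the shJUP libraries, against 434, 288 and 403 CPM in the controls. The groups do not overlap: the shJUP libraries lie close together (252 ± 9.3 CPM, SD, n = 3), and in the controls (375 ± 77 CPM) shNC 2 is the low one. The log2 fold change was -0.57 (SE 0.16; adjusted p = 0.40 by edgeR, 0.075 by DESeq2 and 0.0063 by DESeq2 with the block). Its level was 0.603, 0.870 and 0.603 of the same-numbered control in pairs 1, 2 and 3.

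LAMC1 had a log2 fold change of like size, with 787, 1170 and 978 CPM in the shJUP libraries, against 1480, 1500 and 1320 CPM in the controls. The groups do not overlap, with shJUP 2 the closest to the controls and shJUP 1 the lowest. Its mean of 979 ± 190 CPM against 1440 ± 97 CPM (SD, n = 3 each) gave a log2 fold change of -0.55 (SE 0.16), where edgeR gave an adjusted p of 0.40, DESeq2 0.084 and DESeq2 with the block 0.0029. In the pairs its level was 0.531, 0.781 and 0.738 of the control. LAMA5, the alpha chain of the laminin found in most adult basement membranes, stood at 78.3, 173 and 69 CPM in the shJUP libraries, against 138, 228 and 161 CPM in the controls. These groups overlap because shJUP 2 lies above shNC 1 and shNC 3, yet within each number the shJUP library is lower, at 0.568, 0.762 and 0.430 of the control. The log2 fold change was -0.71 (SE 0.37) without the block and -0.81 with it (adjusted p = 0.56 and 0.12 by edgeR, 0.42 and 0.00034 by DESeq2).

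The promoters of ITGAV, LAMC1, LAMA5 and ITGB5 are shown because these members had an unadjusted p under 0.05 in edgeR or a call in DESeq2 with the block, as did ITGB3, which is named only. Each is the run of 250 bases before the gene's start, 5′ to 3′ in the direction of transcription, from RefSeq on GRCh38.p14, with matches to the searched motifs in capitals. Windows of 25 of the 33 members were found in the RefSeq table, that of ITGB3 not among them, and a gene can have other starts. They lie at chr2:186589806-186590055 (plus strand) for ITGAV, chr1:183023170-183023419 (plus) for LAMC1, chr20:62367313-62367562 (minus) for LAMA5 and chr3:124901419-124901668 (minus) for ITGB5.
ITGAV: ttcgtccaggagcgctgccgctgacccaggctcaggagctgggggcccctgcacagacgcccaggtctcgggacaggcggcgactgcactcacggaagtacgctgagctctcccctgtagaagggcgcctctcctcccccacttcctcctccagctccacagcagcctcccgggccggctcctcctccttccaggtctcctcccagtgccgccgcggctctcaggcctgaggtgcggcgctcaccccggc
LAMC1: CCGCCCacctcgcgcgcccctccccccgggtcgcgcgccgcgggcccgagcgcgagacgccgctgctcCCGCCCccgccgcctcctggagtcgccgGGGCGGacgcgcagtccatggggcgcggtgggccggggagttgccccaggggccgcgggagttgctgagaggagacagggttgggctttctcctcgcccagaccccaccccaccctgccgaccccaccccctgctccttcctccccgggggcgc
LAMA5: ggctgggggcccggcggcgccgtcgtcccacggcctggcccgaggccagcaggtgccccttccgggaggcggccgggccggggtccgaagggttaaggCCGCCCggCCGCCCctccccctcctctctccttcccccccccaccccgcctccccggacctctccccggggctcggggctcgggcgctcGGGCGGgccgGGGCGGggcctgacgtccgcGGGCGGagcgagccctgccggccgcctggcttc
ITGB5: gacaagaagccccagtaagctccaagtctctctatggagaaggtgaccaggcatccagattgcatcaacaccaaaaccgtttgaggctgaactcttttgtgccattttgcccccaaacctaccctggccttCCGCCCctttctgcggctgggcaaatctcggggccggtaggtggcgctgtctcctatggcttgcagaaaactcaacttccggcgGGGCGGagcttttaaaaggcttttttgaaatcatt
The search, on both strands, was for the STAT site TTCNNNGAA, the TCF/LEF core CTTTGA, the TEAD core GGAATG, the AP-1 site TGANTCA, the GC box GGGCGG and the TATA box TATAAA. None of these motifs contains another. The capitals above are all GC boxes, which read CCGCCC on the other strand: 3 in LAMC1, 5 in LAMA5, 2 in ITGB5 and 0 in ITGAV. A GC box is in 42.3% of 27305 promoter windows of the same length and in 14 of the 25 members. The STAT letters are in 6.78% of all windows and in 2 members, ITGAE and LAMB2; those of TCF/LEF are in 11.4% and 3 members, of TEAD in 11.9% and 4, of AP-1 in 6.6% and 1, LAMA3, and of the TATA box in 11.1% and 1, ITGA6. G and C made up 70.8% of the window of ITGAV, 79.6% of LAMC1, 82.8% of LAMA5 and 52.8% of ITGB5. The median was 68% over the 25 members with a window and 58% over all windows. The motif shares above were not matched for this difference.

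Of the 8 beta chains 6 had log2 fold changes below 0, where 51.4% of all genes did, and 0 passed in edgeR. The 6 were ITGB4 and the partners of ITGAV, which are ITGB1, ITGB3, ITGB5, ITGB6 and ITGB8. ITGB3, which with ITGAV forms the vitronectin receptor, stood at 110, 129 and 56 CPM in the shJUP libraries, against 134, 183 and 151 CPM in the controls. The groups do not overlap, and shJUP 3 is the lowest. The log2 fold change was -0.67 (SE 0.29; adjusted p = 0.51 by edgeR, 0.32 by DESeq2 and 0.017 by DESeq2 with the block). In the GENCODE release 29 annotation 51.6% of the exon length of ITGB3 is shared with another gene on the same strand, so its counts are uncertain. More than 10% is shared also for ITGB6 (20.6%, same strand) and, on the opposite strand, ITGB7 (42.1%), NID2 (30%) and LAMA1 (10.3%).

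ITGB5, which with ITGAV forms a further vitronectin receptor, stood at 115, 144 and 123 CPM in the shJUP libraries, against 146, 157 and 164 CPM in the controls. The groups do not overlap, although shJUP 2 and shNC 1 are close, and the log2 fold change of -0.29 (SE 0.12) came with adjusted p = 0.48 in edgeR and 0.18 in DESeq2 with the block. ITGB6, an epithelial beta chain that activates latent TGF-beta, was at 18.9 to 29.7 CPM in shJUP and 24.4 to 46.3 CPM in shNC (log2 -0.48, SE 0.29). ITGB8, the other such activator, stood at 16, 78.7 and 36.7 CPM in the shJUP libraries, against 47.8, 48.2 and 53.4 CPM in the controls. Its controls lie close together while the shJUP libraries span 4.93-fold around them, with shJUP 2 highest and shJUP 1 lowest, and the log2 fold change was -0.19 (SE 0.48). ITGB8 and LAMA4 were the 2 members that spanned over 4-fold within a group (6.45%, against 6.41% of all genes). ITGB1, in CPM, was at 2150, 2300 and 2360 in the shJUP libraries, against 2560, 2350 and 2880 in the controls, and its log2 fold change was -0.19 (SE 0.11, adjusted p = 0.60 by edgeR). The 2 beta chains above 0 were the leukocyte chains ITGB2 (1.55 to 3.84 CPM, log2 0.55, SE 0.31) and ITGB7 (0.587 to 1.54 CPM, log2 0.30, SE 0.43), with 28 to 72 and 11 to 29 counts a library.

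**Figure D4:**
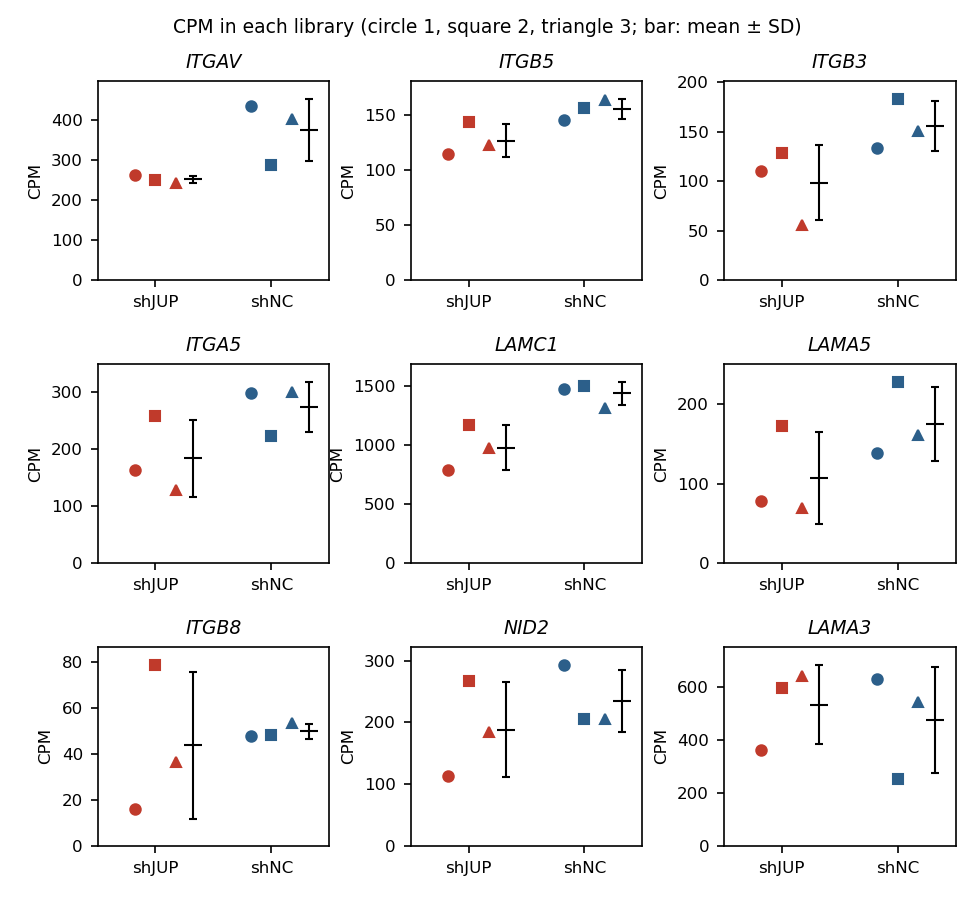
CPM in each library (axis from 0) for 9 members, with circles, squares and triangles for numbers 1, 2 and 3 and a bar for mean ± SD of 3 libraries. ITGAV, ITGB5, ITGB3 and LAMC1 show groups that do not overlap, while in ITGA5, LAMA5 and NID2 the square of shJUP lies among the controls.

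The remaining alpha chains divide by ligand. Of the laminin receptor chains, ITGA3 was at 1280, 1630 and 1260 CPM in the shJUP libraries, against 1550, 1680 and 1790 CPM in the controls. Only shJUP 2 lies within the range of the controls, and the log2 fold change was -0.26 (SE 0.13, adjusted p = 0.56 by edgeR). ITGA6 was at 479, 406 and 499 CPM in the shJUP libraries, against 482, 506 and 461 CPM in the controls (log2 -0.07, SE 0.11). Its groups overlap almost fully, and its SE and that of ITGB1 are the smallest among the members. Its partner in hemidesmosomes, ITGB4, was at 63.8 to 130 CPM against 82.6 to 145 CPM (log2 -0.24, SE 0.32). The chains ITGA1 and ITGA2 form collagen receptors, and both overlapped between groups. ITGA1 was at 15.8, 43 and 22.4 CPM in the shJUP libraries, against 33.3, 47.5 and 34.7 CPM in the controls (log2 -0.51, SE 0.35). ITGA2 was at 32.9 to 60.7 against 45.7 to 62.8 CPM (log2 -0.27, SE 0.23). ITGAE, which binds E-cadherin, was at 20.9 to 24.7 CPM in shJUP and 18 to 19.3 CPM in shNC without overlap, with a log2 fold change of 0.25 (SE 0.12, adjusted p = 0.55 by edgeR). The alpha chains of low level overlapped between groups: ITGA7, a laminin receptor chain of muscle, at 0.653 to 2.39 CPM (log2 -0.02, SE 0.54), ITGA9 at 1.27 to 2.45 CPM (0.34, SE 0.33) and ITGA10, a collagen receptor chain, at 1.87 to 2.87 CPM (0.14, SE 0.28).

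The laminin chains did not share a direction: 6 of 10 laminin chains lay above 0 and 4 below. LAMB3, in CPM, was at 275, 377 and 365 in the shJUP libraries, against 312, 297 and 318 in the controls (log2 0.14, SE 0.14). LAMA3, which assembles with LAMB3, was at 361 to 642 CPM in shJUP and 252 to 630 CPM in shNC (log2 0.17, SE 0.35), with shNC 2 the lowest of all. LAMB1, a beta chain that assembles with LAMC1, was at 160 to 248 against 204 to 281 CPM (log2 -0.20, SE 0.19). LAMB2 was at 41 to 61.3 against 39.1 to 51.2 CPM (log2 0.15, SE 0.19). LAMA4, an alpha chain of vessel and mesenchymal laminins, had the largest fold and the largest SE (log2 -1.60, SE 0.89). It stood at 0.167, 1.65 and 0.531 CPM in the shJUP libraries, against 1.11, 5.05 and 1.03 CPM in the controls, from 3 to 95 counts, and was highest in the number-2 library of each group. LAMA1 (0.544 to 1.17 CPM, log2 0.35, SE 0.40), LAMA2 (1.01 to 1.86 CPM, log2 0.40, SE 0.32) and LAMC3 (0.531 to 0.854 CPM, log2 0.31, SE 0.36) overlapped between groups. Of the nidogens, NID2 was at 114, 267 and 184 CPM in the shJUP libraries, against 293, 205 and 206 CPM in the controls (log2 -0.32, SE 0.30), and NID1 at 13.5 to 26 against 13.3 to 31.6 CPM (log2 0.02, SE 0.37). In the annotation 30% of the NID2 exon length is shared with a gene on the opposite strand, and the strand setting of the counting is not given in the sources used here.

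Summed over chains, the integrins did not overlap between groups, with shJUP below. The 13 alpha chains summed to 2300, 2690 and 2240 CPM in the shJUP libraries, against 2870, 2860 and 3080 CPM in the controls, and the 8 beta chains to 2470, 2820 and 2670 CPM against 3000, 2930 and 3350 CPM. These sums are set mainly by ITGA3 and ITGB1, each of which overlapped between groups, and the sums were not tested. The 10 laminin chains summed to 1710, 2640 and 2320 CPM against 2810, 2620 and 2630 CPM, where shJUP 2 lies within the controls.

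The number-2 libraries were high for many members in both groups. In 14 of 31 members the number-2 library was the highest of its group in shJUP and in shNC (45.2%, against 25.6% of all genes), and in 1, LAMA2, it was the lowest in both (3.23%, against 25.7%). The 14 were ITGA1, ITGA2, ITGA7, ITGA9, ITGB3, ITGB4, ITGB6, LAMA1, LAMA4, LAMA5, LAMB1, LAMB2, LAMC1 and NID1. LAMA4 was 4.74 times the mean of numbers 1 and 3 in shJUP and 4.72 times in shNC, LAMA5 2.35 and 1.53 times, and ITGB4 1.90 and 1.72 times. Other members parted: ITGB8 was 2.99 times in shJUP and 0.953 in shNC, ITGA5 1.78 and 0.743, NID2 1.79 and 0.825, and ITGA4, an alpha chain that binds VCAM1 and fibronectin, 0.775 and 2.60. The fibroblast markers DCN and LUM were also highest in the number-2 libraries. They were at 5.87 and 6.67 CPM in shJUP 2 and 7.54 and 15.5 CPM in shNC 2. PDGFRA, FAP and POSTN were highest there too, with POSTN at 0.48 CPM in shJUP 2 and 44.2 CPM in shNC 2. FAP had only 1 to 11 counts a library. THY1, with 2 to 5 counts, was level between shJUP 2 (0.213 CPM) and shJUP 3 (0.212 CPM). COL1A1, COL1A2, COL3A1 and PDGFRB were highest in shNC 2 of the controls but in shJUP 1 of the shJUP libraries. COL1A1 was at 253, 32.3 and 8.76 CPM in the shJUP libraries, against 38.3, 401 and 49.3 CPM in the controls. COL3A1 was at 5.58, 0.16 and 0.0531 CPM against 0.0553, 46 and 0.598 CPM. ERBB2 was 1.58 times the mean of numbers 1 and 3 in shJUP and 1.60 times in shNC. The part of those genes in the levels of the members was not tested.

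**Figure D5:**
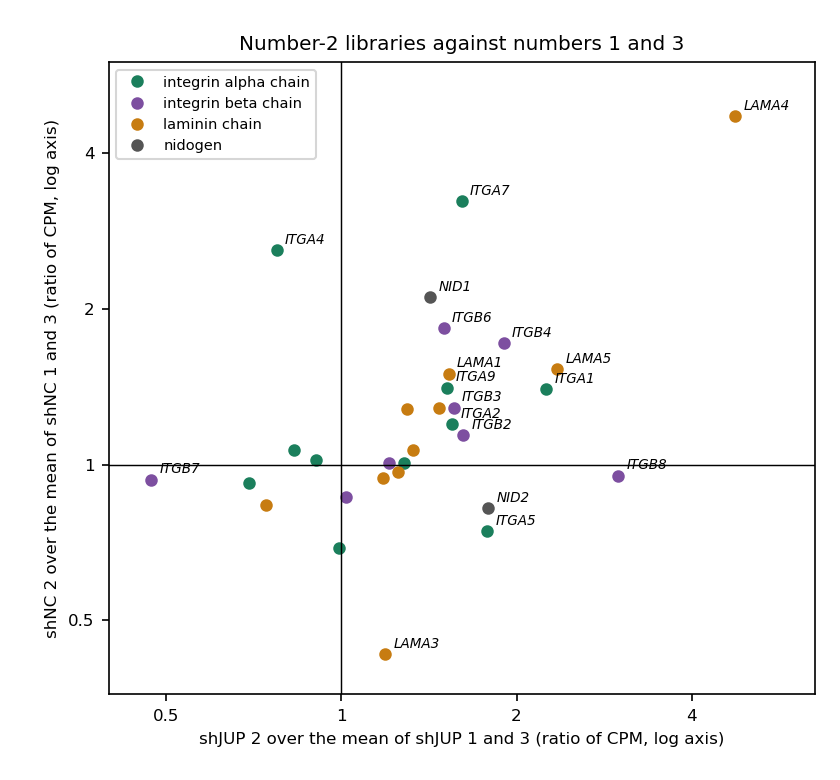
Ratio of CPM in the number-2 library to the mean of numbers 1 and 3 of the same group, shJUP on the x axis and shNC on the y axis (both log axes), 1 point per tested member. Points right of and above 1, with LAMA4 at 4.74 and 4.72 farthest out, are above the mean of numbers 1 and 3 in both groups; ITGA4, LAMA3, ITGA5, NID2 and ITGB8 lie off that diagonal.

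Without both number-2 libraries DESeq2 called more members. DESeq2 then called 6 members lower (19.4%, against 2.26% of all genes) and 1 higher (3.23%, against 1.97%), with 4.23% of all genes called in either direction. In edgeR 0 members were called, against 0.308% of all genes (0.189% lower and 0.119% higher). The 6 were ITGA1 (log2 -0.82, adjusted p = 0.012), ITGA5 (-1.03, 1.9e-08), ITGAV (-0.72, 1.6e-06), LAMA5 (-1.01, 6.6e-08), LAMC1 (-0.66, 8.3e-04) and NID2 (-0.73, 0.049), all adjusted p from that DESeq2 fit. That fit compared 2 shJUP libraries with 2 controls. On the same libraries edgeR gave the 6, in that order, adjusted p of 0.12, 0.052, 0.063, 0.05, 0.11 and 0.23. ITGA5, the fibronectin receptor chain, stood at 163, 259 and 128 CPM in the shJUP libraries, against 299, 223 and 300 CPM in the controls. Numbers 1 and 3 were at 0.545 and 0.428 of their controls, while number 2 was at 1.16, so the log2 fold change over all 6 libraries was -0.58 (SE 0.26, adjusted p = 0.52 by edgeR). The higher member, ITGA4, was at 28.5, 17.6 and 16.8 CPM in the shJUP libraries, against 10.6, 27.1 and 10.3 CPM in the controls (DESeq2 adjusted p = 0.0080 without number 2), and again only the number-2 pair ran the other way. ITGB3 was not called in that DESeq2 fit (log2 -0.77, adjusted p = 0.47). ITGA1, ITGA4, ITGA5 and NID2 were given by library because of these calls, after their values were seen.

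The proteins that join integrins to actin were counted next. Of 32 activators, adaptors and adhesion proteins, all tested, 18 lay above 0 and 14 below, with a median log2 fold change of 0.04, and 0 passed in edgeR. DESeq2 called 2 higher and 0 lower (against 0.674% and 0.586% of all genes), and without number 2 it called 3 higher and 1 lower (against 1.97% and 2.26%). ACTN4, an actin crosslinker at adhesion sites, was at 847, 869 and 925 CPM in the shJUP libraries, against 643, 617 and 660 CPM in the controls (log2 0.46, SE 0.10; adjusted p = 0.33 by edgeR, 0.001 by DESeq2). Its lowest shJUP library lies above its highest control. KANK1, which binds talin at the rim of adhesions, was at 41.9 to 43.9 against 26.1 to 33.9 CPM (log2 0.54, SE 0.13; adjusted p = 0.38 by edgeR, 0.044 by DESeq2). TLN2, a talin, which links the beta tail to actin (log2 0.65, SE 0.21), and ITGB1BP1, which binds the ITGB1 tail (0.41, SE 0.15), had an adjusted p of 0.032 and 0.031 in DESeq2 with the block and 0.16 and 0.31 without it.

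Among 28 other basement membrane proteins 22 were tested, of which 17 lay below 0 and 5 above (median -0.42), and 0 passed in edgeR. Over all genes 51.4% lay below 0. DESeq2 called 0 without the block, 8 lower and 0 higher with it (against 2.43% and 1.93% of all genes), and 7 lower and 0 higher without number 2 (against 2.26% and 1.97%). COL4A1 and COL4A2, the chains of the main collagen IV network, were at 385, 456 and 443 against 868, 479 and 638 CPM and at 431, 566 and 547 against 729, 636 and 727 CPM in shJUP and shNC. Neither gene's groups overlap (log2 -0.63, SE 0.21, and -0.44, SE 0.14; adjusted p = 0.44 and 0.42 by edgeR, 0.048 and 0.038 by DESeq2 with the block). HMCN1, or hemicentin, was at 0.614 to 3.25 against 2.88 to 15.3 CPM (log2 -2.02, SE 0.84; adjusted p = 0.48 by edgeR, 0.0011 by DESeq2 with the block), and EFEMP1, a fibulin, at 22.1 to 48.3 against 33.4 to 114 CPM (log2 -1.01, SE 0.45). Both overlapped between groups.

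Of 23 integrin ligands other than laminins and collagens 18 were tested, 13 below 0 and 5 above (median -0.37), and 0 passed in edgeR. DESeq2 called 2 lower and 0 higher (against 0.586% and 0.674% of all genes), 3 lower with the block (against 2.43%) and 4 lower without number 2 (against 2.26%). Without number 2 edgeR called 1 lower, FBN1 (adjusted p = 0.048), against 0.189% of all genes. The 2 from DESeq2 on all 6 libraries were TGFBI, a matrix ligand of several integrins, at 288 to 385 against 534 to 693 CPM (log2 -0.97, SE 0.16, DESeq2 adjusted p = 3.9e-05), and FBN1, a microfibril protein that binds ITGAV integrins, at 375 to 393 against 513 to 766 CPM (log2 -0.78, SE 0.16, DESeq2 adjusted p = 0.0020). Neither gene overlapped between groups. ADAM17, a membrane protease, was at 57.2 to 80.7 against 79.5 to 85.3 CPM (log2 -0.31, SE 0.15), and MFGE8, a ligand of ITGAV integrins, at 55.5 to 102 against 53.8 to 57.6 CPM (0.49, SE 0.21). The 19 hemidesmosome and laminin-binding surface proteins had 11 above 0 and 8 below (median 0.11), where 51.4% of all genes lay below 0. In edgeR 0 were called, against 0% of all genes. DESeq2 called 0 without the block (against 1.26% of all genes) and 0 with it (against 4.36%). Without number 2 it called 1 higher and 0 lower (against 1.97% and 2.26%). That gene was SDC1 (log2 0.65, DESeq2 adjusted p = 0.0016), at 130 to 148 against 84.4 to 155 CPM over all 6 libraries. CD44, a hyaluronan receptor, was at 980 to 1080 against 804 to 922 CPM without overlap (log2 0.24, SE 0.10). CSPG4, a surface proteoglycan, was at 0.265 to 0.446 against 0.584 to 0.816 CPM (log2 -1.14, SE 0.40). Its groups did not overlap either, but it had only 5 to 15 counts a library. CD82, a tetraspanin, at 6.64 to 17.7 against 3.76 to 9.56 CPM (log2 0.91, SE 0.44), and RPSA, a ribosomal protein also described as a laminin receptor, at 681 to 837 against 638 to 712 CPM (0.18, SE 0.12), overlapped.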

How the data were processed

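RNA of SKOV3 cells was measured in 3 shJUP and 3 shNC libraries. Per the labels, each group had 3 biological replicates that were independent, and polyadenylated RNA was read on a DNBSEQ instrument. The table the authors deposited holds expected counts for each Ensembl gene without scaling. The submitters' processing notes list STAR 2.7.9a, RSEM 1.3.3, edgeR 3.32.1 and DESeq2 1.26.0 and do not say what each did. The sources used here give no genome build, annotation release or strand setting. The FPKM values named in the labels were not used here.

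Of 60695 rows 31 held no gene ID and were left out (0% of the counts). The expected counts were rounded and tested in R 4.3.3 with edgeR 4.0.16 (filterByExpr, 15867 genes; TMM factors 0.978 to 1.03; quasi-likelihood test, two-sided, Benjamini-Hochberg over all genes, threshold 0.05). The SE of a log2 fold change is its size divided by the root of F. Other fits used DESeq2 1.42.0, limma-voom 3.58.1, other scalings and filters, a block for the library number, and fewer libraries. Deviations from group means correlated at 0.14, 0.51 and 0.20 within numbers 1, 2 and 3. Each was over 0.1, so the numbers were taken as pairs. However, shJUP 1 correlated at 0.15 with shNC 3 and shJUP 3 at 0.39 with shNC 1, so only number 2 stands out as a pair. Lengths and exon overlaps came from GENCODE release 29. The edgeR, DESeq2 and limma-voom fits of 6 libraries without a block were tested on simulated counts that held no effect of the library number. The fits with the block and those without number 2 were not tested in that way.

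The members and lists were chosen with earlier results of these data known. All 33 members were named. Values by library were printed for members averaging 5 CPM or more that had an unadjusted p under 0.05 or a DESeq2 call, for the 6 most abundant per kilobase, and for those spanning over 4-fold within a group. Of each pathway list the 4 genes with the smallest p were named, with any DESeq2 call. The DESeq2 count with the block for the adaptor list is not reported here.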

Additional observations from a re-analysis of the deposited data

How the results depend on the processing

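The count of called members depends on the test: edgeR and limma-voom called 0 under each setting run, DESeq2 called 0, then 4 given the replicate block, and 7 once both number-2 libraries were left out. Over all genes edgeR called 0, also with any 1 library left out, but 5 if genes were not filtered, 1 given the replicate block (limma-voom likewise 1) and 49 if both number-2 libraries were left out. The DESeq2 counts were 200 in its plain form, 692 given the block and 673 if both number-2 libraries were left out. On all genes above 0, a setting added after seeing the data, DESeq2 called 179 genes and 0 members, and 696 genes and 4 members with the block. Members at an unadjusted p under 0.05 were 3, and 6 without the filter, 6 with DESeq2 (5 on all genes above 0), 5 with limma-voom, 9 with the block in each tool (also 9 for DESeq2 on all genes above 0), 14 in edgeR and 11 in DESeq2 without both number-2 libraries, and 2 to 12 with 1 library left out, the highest without shJUP 2. In the main fit 10% of all genes were at that unadjusted p in edgeR. That share is not given here for the other settings, so their counts do not set the members apart from other genes. The cause of the differences between settings was not tested.

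Of the 31 tested members 22 kept the direction of their log2 fold change in every setting run, among them ITGAV (-0.73 to -0.46 with 1 library left out), LAMC1 (-0.70 to -0.41), LAMA5 (-1.25 to -0.48), ITGB3 (-0.91 to -0.38), ITGB5 (-0.39 to -0.22) and ITGA5 (-0.91 to -0.38). The 9 that turned had log2 fold changes smaller than their SE. With 1 library left out the ranges were ITGA6 -0.13 to 0.02, ITGA7 -0.33 to 0.78, ITGA10 0 to 0.30, ITGB4 -0.62 to 0.07, ITGB7 -0.12 to 0.58, ITGB8 -0.92 to 0.22, LAMA3 -0.14 to 0.42, LAMB2 -0.06 to 0.29 and NID1 -0.21 to 0.48. ITGA7 was also at 0.02 with no scaling factor, 0.18 with limma-voom, 0.13 in edgeR given the replicate block, 0.04 in limma-voom given it and 0.53 without both number-2 libraries, where ITGA6 was at 0.06 and LAMA3 at -0.22 in edgeR and in DESeq2. The biological coefficient of variation was 24.2%, and members under 3 CPM rest on few counts.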
